A study of Cyanidioschyzon merolae with 75 samples.

Results

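In Cyanidioschyzon merolae, a red alga of single cells, the first 12 h of each 24 h cycle were compared with the last 12 h in all 4576 genes measured on the arrays. The comparison used 24 of the 75 two-colour arrays of the study, those of its series 3 from 2 to 48 h. The early window held the 12 sampling times from 2 to 12 h and from 26 to 36 h, and the late window the 12 times from 14 to 24 h and from 38 to 48 h. All times came from strain 10D, in cells whose divisions had been set in step by light and dark cycles, and no mutant, drug or other treatment is named for any of them. RNA of each time carried the dye Cy3 and a mixture of RNA from the samples carried Cy5. Intensities of series 3 equalled the mean of the other series within 0.01% at the 23 times that could be compared, which leaves out 14 h, so each time gave 1 value, and no replicate culture entered a test. When light and dark fell is not known from the labels used here, so the windows are named by sampling time alone and are not called day or night.

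Cells of this alga hold a single nucleus, a single mitochondrion and a single plastid, which divide in a fixed order before the cell does. Under alternating light and dark the cells grow in the light and division is gated to a part of the daily cycle, so that cultures pass through growth and division together. RNA levels in such a culture can follow the cell cycle, light itself or a daily clock, and sampling over time does not separate these.

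Values are log2 ratios of Cy3 to Cy5 from which the median of the array was taken, so 0 is the middle gene of that array. A difference is the early mean minus the late mean, and a difference of 1 is 2-fold. A gene was called when limma's moderated test, with the cycle as a term, gave a Benjamini-Hochberg adjusted p under 0.05 over all 4576 genes and the difference had the same sign in each cycle. Errors after ± are standard errors of that fit over 24 times. They measure the scatter of times within a window, and likeness between neighbouring times, where present, would make the p-values too small. When 1 common correlation of 0.0893 between neighbouring times was allowed for, 449 of the 589 genes below were called and no others. That correlation was a mean over all 4576 genes, so a gene whose neighbouring times were more alike was corrected too little. The count of 449 therefore does not settle how many calls hold. With each run of 6 neighbouring times as a random block the estimated correlation was -0.00591 and 626 genes were called. Each run was 1 window of 1 cycle, and window and cycle were already terms of this fit. Almost no difference between runs was left to estimate, so this fit cannot show whether neighbouring times are alike.

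The windows differed in 589 genes (12.9% of those tested). Of these, 402 (8.78%) were higher in the early window and 187 (4.09%) in the late, named early and late genes from here on. Differences of the 402 genes ran from 0.16 to 2.84 with a median of 0.55, and those of the 187 from -2.31 to -0.17 with a median of -0.32. Over all genes the median difference was -0.0096. Of the called genes that reached 2-fold, 57 (1.25%) were higher in the early window and 6 (0.131%) in the late; with loess the split was 25 and 15, and without 46 and 48 h it was 53 and 19. Without the call, 1153 genes (25.2%) had an unadjusted p under 0.05. The share of early genes depended on the scaling. Normalising within each array by loess gave 594 calls (13%), split into 325 (7.1%) higher in the early window and 269 (5.88%) in the late window. Scaling the spread between arrays gave 406 (8.87%) and 238 (5.2%), and normexp, a background correction, gave 354 (7.74%) and 217 (4.74%). No called gene turned its sign with loess, 0 of 589, and 411 genes (8.98%), 271 (5.92%) early and 140 (3.06%) late, were called the same way with median centring, loess, normexp and scaling.

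The sets had different courses within the cycle. The median ratio of the 402 early genes stood between 0.12 and 0.23 from 2 to 10 h, was already -0.14 at 12 h, and lay between -0.56 and -0.25 from 14 to 22 h. At 24 h it was back to 0.0019, before the nominal border. In the second cycle it ran from -0.14 to 0.20 between 26 and 36 h and from -0.95 to -0.40 between 38 and 48 h, with the lowest value at 46 h. The early and late medians of these genes overlapped, since those at 12, 30, 32 and 34 h lay below the one at 24 h. The median of the 187 late genes lay between -0.43 and -0.03 at all 12 early times. It lay between 0.12 and 0.26 at all 12 late times, so these did not overlap. Both sets were called on the contrast of these same times, so a gap between the windows comes in part with the choice.

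**Figure D1:**
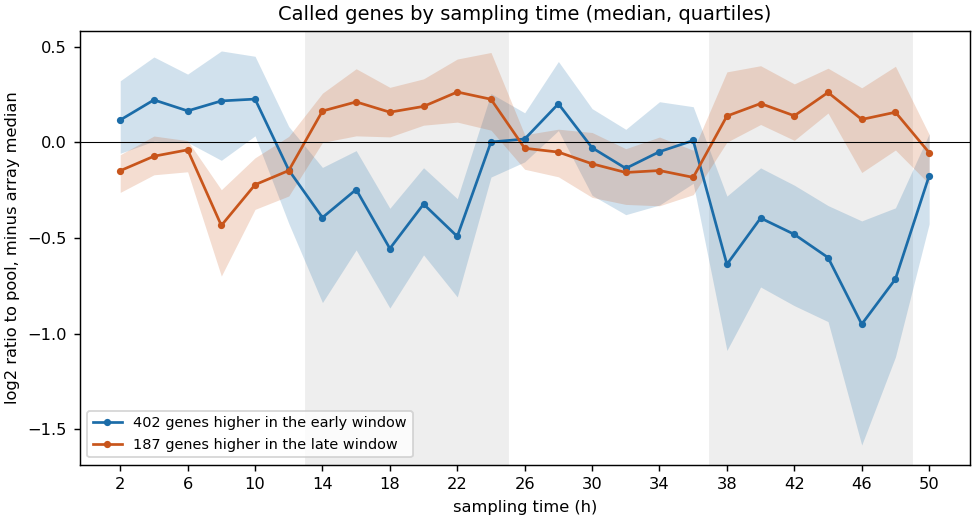
Median log2 ratio to the pool, minus the array median, of the genes called higher in the early window (blue) and in the late window (orange) against sampling time in h, with bands from the lower to the upper quartile; grey areas mark the late window. The blue median drops at 12 h, returns to about 0 at 24 h and reaches -0.95 at 46 h, while the orange median stays below 0 at the early times and above 0 at the late times.

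When values of equal clock time in both cycles were averaged, early genes were most often highest at 4 h (176 of 402), followed by 10 h (69), 8 h (56) and 2 h (42). Their lowest point fell most often at 22 h (203 genes) or 14 h (90 genes). The late genes were highest at 22 h (51 of 187), 24 h (39), 20 h (36) or 16 h (33), and 102 of them were lowest at 8 h. These hours describe genes selected for the contrast and carry no test. Over all 4576 genes, 22 h (696) and 8 h (690) were the most frequent highest times. The other hours named had 439 (4 h), 410 (10 h), 396 (24 h), 362 (20 h), 267 (16 h) and 121 (2 h). Lowest times were not counted over all genes, so the lowest times above have no share to stand beside.

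The 12 called genes with the largest difference in each direction were taken by rule. The files and the reference table give these genes by locus tag with no product, so no function is stated for any of them, and the planned lists of histone, tubulin, replication, organelle division, photosynthesis and other genes had no matched member. For the same reason the step of the cell cycle at each time could not be checked against marker genes. All 12 leading early genes lay in the brightest class of genes by Cy5 intensity, and 4 of them on chromosome 10. Their adjusted p from limma ran from 8.02e-09 to 0.0103.

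CMN235C differed most. Its log2 ratio had a lowest, median and highest value of -1.08, 0.13 and 1.12 in the early window and of -3.79, -2.84 and -1.62 in the late. The windows did not overlap, and the difference was 2.84 ± 0.26 (12 against 12 times), or 7.14-fold. The gene with the preceding tag, CMN234C on chromosome 14, ran from -1.14 to 0.48 (median -0.12) in the early window and from -3.85 to -1.81 (median -2.85) in the late, again without overlap, and differed by 2.69 ± 0.21. The border was sharp for CMN234C: -1.14 at 12 h was followed by -3.83 at 14 h, and 0.06 at 36 h by -3.05 at 38 h. Between 22 h and 26 h it went from -3.15 through -1.81 at 24 h to -0.50. Whether the probes of these genes with consecutive tags share sequence was not analysed here.

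CMQ142C, on chromosome 17, ran from -0.97 to 0.84 (median -0.20) in the early window and from -4.31 to -0.89 (median -2.55) in the late, and differed by 2.60 ± 0.28. Its highest late value reached just into the early range. The early mean of this gene was -0.76 in cycle 1 and 0.48 in cycle 2, with SDs of 0.18 and 0.27 over 6 times, whereas its late means were -2.71 and -2.76. CMR293C on chromosome 18 had early values from -0.62 to 0.87 (median 0.34) and late values from -2.82 to -0.79 (median -1.57), with no overlap and a difference of 1.94 ± 0.17. CMR182C, also on chromosome 18, went from -0.77 to 0.83 and from -2.97 to -0.81, did not overlap either, and differed by 1.51 ± 0.16.

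The chromosome 10 genes among the leading 12 each had overlapping windows. CMJ305C ran from -1.42 to 1.34 (median 0.15) in the early window and from -3.12 to 0.43 (median -1.99) in the late, a difference of 2.08 ± 0.32. CMJ054C had medians of 0.11 and -1.84 and a difference of 1.85 ± 0.27, and CMJ105C medians of 0.30 and -1.56 and a difference of 1.63 ± 0.27. CMJ148C, with medians of -0.43 and -1.96, was the least even of them: its late values spread from -3.97 to 0.02, and the difference of 1.53 ± 0.39 was not called with loess (0.94, adjusted p 0.124 from limma) or without the bright arrays described below, where the difference was 1.39 over 20 times (adjusted p 0.0663). The other leading genes were CMQ113C (1.77 ± 0.21, chromosome 17), CMH006C (1.59 ± 0.22, chromosome 8) and CMG162C (2.83-fold, chromosome 7). In each of the 12, the lowest point by clock time came at 14, 18 or 22 h and the highest at 2, 4 or 6 h, the clock times that hold a bright array. The difference was larger in cycle 2 in 10 of the 12 and smaller with loess in all 12.

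In the other direction CMS022C, on chromosome 19, stood apart in size. It ran from -3.85 to 0.95 (median -3.49) in the early window and from -3.70 to 1.94 (median -0.34) in the late, a difference of -2.31 ± 0.60 with adjusted p 0.0109 from limma. The windows overlapped over most of their range, and the course of the gene met their borders differently in each cycle. In cycle 1 it stayed at or below -3.23 from 2 to 12 h and was above 0 at 16, 18 and 20 h. In cycle 2 it was 0.95 at 36 h, peaked at 1.94 at 38 h and was -3.70 at 46 h. Without the bright arrays the difference was -2.09 over 20 times, with adjusted p 0.0703 from limma, and the call was lost.

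The next 5 late genes differed by 2.04-fold to 2.27-fold. CMM257C, on chromosome 13, had an early range of -0.85 to 0.66 (median -0.56) and a late range of 0.18 to 1.46 (median 0.87), and differed by -1.18 ± 0.16. CMT283C on chromosome 20 had medians of -0.73 and 0.42, with the late window reaching down to -0.62, and differed by -1.15 ± 0.15. CMK072C (-1.15 ± 0.23), CML153C (-1.04 ± 0.25) and CMK115C (-1.03 ± 0.23) lie on chromosomes 11, 12 and 11. Of the leading 12, CMK012C alone had windows that did not overlap. It ran from -1.05 to 0.20 (median -0.39) in the early window and from 0.23 to 0.88 (median 0.52) in the late, and differed by -0.98 ± 0.11. The other 5, CMP181C, CMS432C, CMT260C, CMT137C and CMH199C, differed by -0.86 to -0.78. None of the 12 lay on chromosome 10, 8 lay in the brightest class, and adjusted p from limma ran from 3.32e-06 for CMK012C to 0.0116 for CMP181C.

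**Figure D2:**
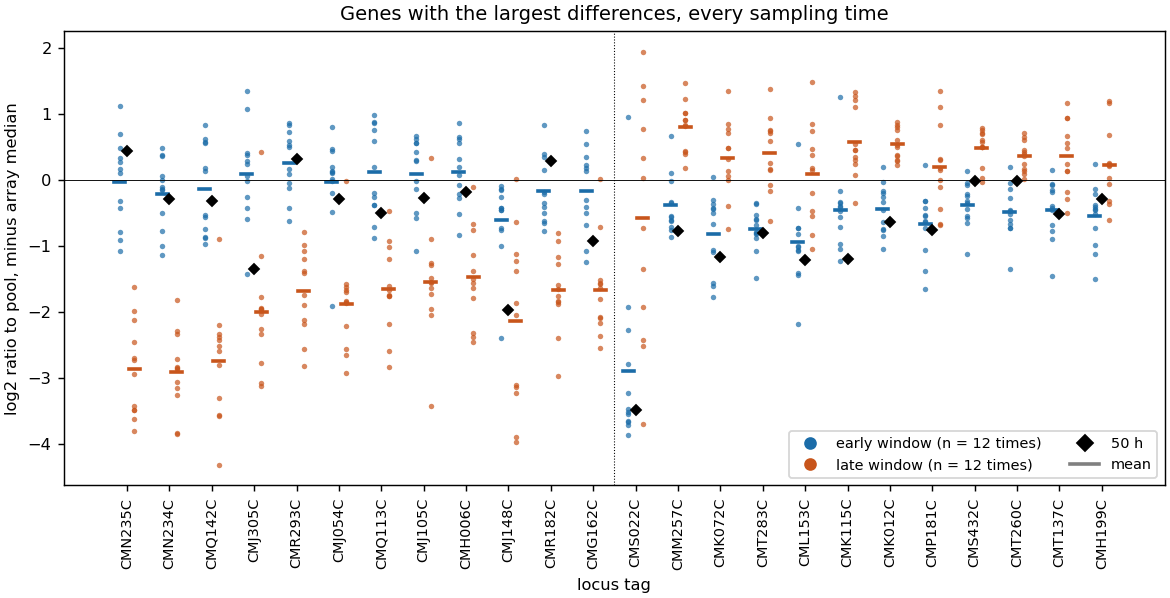
Log2 ratio to the pool, minus the array median, of the 12 genes with the largest difference in each direction (left and right of the dotted line); each point is 1 sampling time, blue for the early window and orange for the late (12 each), bars are means and black diamonds the 50 h array. CMN235C, CMN234C, CMR293C, CMR182C and CMK012C have windows that do not overlap, and CMS022C has windows that overlap from about -3.7 to 0.95.

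Complete separation of the 12 and 12 values was rare. It was found in 9 genes (0.197% of those tested), 6 higher in the early window and 3 in the late. Besides those above, these were CMT289C, CMN018C, CMI063C and CMR377C, named after their values were seen. CMT289C, on chromosome 20, ran from -0.10 to 0.42 in the early window and from -2.66 to -0.48 in the late, and differed by 1.49 ± 0.17. CMN018C on chromosome 14 ran from -0.10 to 0.34 and from -0.99 to -0.22, with a difference of 0.66 ± 0.08. CMI063C (-0.40 ± 0.09, chromosome 9) and CMR377C (-0.52 ± 0.07, chromosome 18) were lower in the early window by less, yet no value crossed. Leaving out an array can keep or raise this count but cannot lower it. The rise was largest for the array of 24 h: without it 24 genes had separate windows, and without 12 h 15 did. On the first principal component, which held 26.7% of the variance, early arrays lay between -16.8 and -1.15. All late arrays but 1 lay between 2.71 and 24.9, and the array of 24 h lay at -11.5, among the early arrays.

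Each cycle was also tested alone, 6 times against 6, as a check of the other. Cycle 1 gave 247 genes (5.4%), 144 (3.15%) higher in the early window and 103 (2.25%) in the late. Cycle 2 gave 191 genes (4.17%), 161 (3.52%) and 30 (0.656%). Of the cycle 1 genes 89.9% had the same sign in cycle 2, and of the cycle 2 genes 90.1% had the same sign in cycle 1. Of all 4576 genes, 57.5% had the same sign in both. The cycles shared 52 calls, 21.1% of the first list and 27.2% of the second. By direction, 93.8% of the early genes of cycle 1 kept their sign in cycle 2, where 47.9% of all genes were higher in the early window. Of the late genes of cycle 1, 84.5% kept their sign in cycle 2, where 52.1% of all genes were higher in the late window. Among the 402 genes called over both cycles, 68.2% had the larger difference in cycle 2. Among the 187 it was 28.3%. The spread of log2 ratios over genes was widest on the arrays of 46 and 48 h, with SDs of 0.62 and 0.55, and it ran from 0.23 to 0.47 on the early arrays; its part in these shares was not tested.

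**Figure D3:**
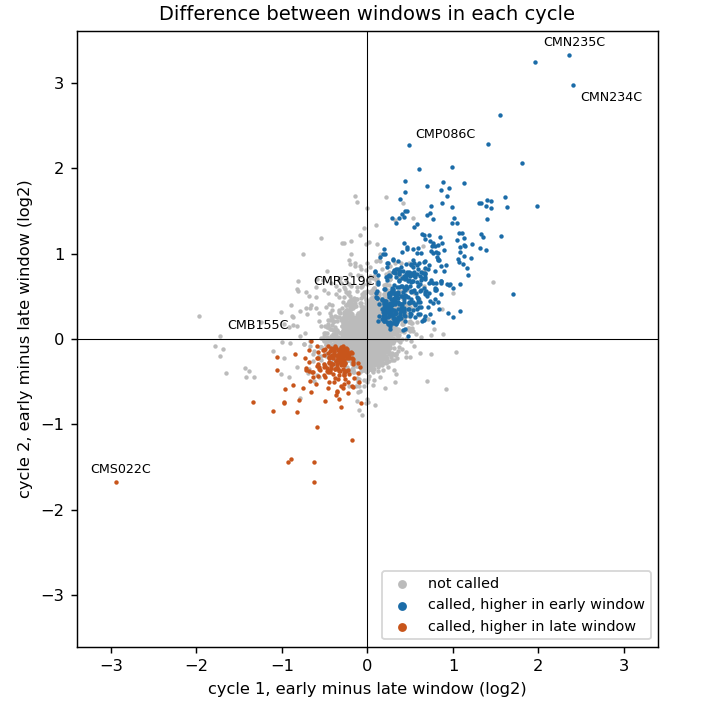
Early mean minus late mean of the log2 ratio in cycle 1 (x axis) and cycle 2 (y axis), 1 point per gene; blue and orange points are called genes and grey points the others. CMN234C and CMN235C lie far to the upper right, CMS022C to the lower left, and CMP086C, CMB155C and CMR319C are the genes whose difference changed between cycles.

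A test of the difference between the cycles called 3 genes (0.0656% of those tested), with 407 (8.89%) at an unadjusted p under 0.05. CMP086C was among the genes called higher in the early window, and its difference was 0.48 in cycle 1 and 2.27 in cycle 2. CMB155C differed by -1.72 in cycle 1 and by 0.03 in cycle 2, and CMR319C by -0.72 and 0.55. All 3 had an adjusted p of 0.0282 from limma, and with loess this test called none of them. Their values in each window and cycle stand in the closing section.

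The array of 50 h had no part in the choice of genes and gave a further value. It follows the last late time by 2 h, in the place of a further early window. A gene was counted on the early side when its value at 50 h lay nearer to its early mean. That held for 141 of the 187 late genes (75.4%) and for 202 of the 402 early genes (50.2%), and for 47.1% of all genes. The 187 genes had a median of -0.05 at 50 h, 0.08 above their early means. The 402 genes had a median of -0.17 at 50 h, which lay 0.22 below their early means and 0.24 above their late means at the middle gene. Of the 12 leading genes, 9 of the early kind and 11 of the late kind stood on the early side. CMN235C was at 0.44 and CMR182C at 0.29, each above its early mean, while CMJ305C at -1.35, CMJ148C at -1.96 and CMG162C at -0.92 were on the late side. This is 1 array, so there is no spread to set against these shares.

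Brightness moved with the calls. When genes were sorted into 4 equal classes by mean log2 Cy5 intensity, 5 of 1144 genes (0.437%) were called higher in the early window in the dimmest class, 29 (2.53%) and 100 (8.74%) in the middle classes, and 268 (23.4%) in the brightest. With median centring, calls for the late window were spread more evenly, 23, 36, 69 and 59. With loess they rose with brightness as well, 7, 32, 102 and 128. The median difference of all genes in the brightest class was 0.15, against values from -0.033 to 0.0027 in the other classes. Loess, which removes a trend of the ratio with brightness on each array, brought this median to 0.044 and the brightest class to 203 calls for the early window (17.7%) and 128 for the late (11.2%). Across genes the correlation of the log2 ratio with brightness ran from -0.58 to 0.24 on early arrays, with a median of -0.21. On late arrays it ran from -0.73 to 0.25, with a median of -0.45. The arrays of 2, 4, 6 and 26 h, all in the early window, had median Cy5 intensities from 12093 to 14416, and the other 20 arrays from 552.3 to 4668. Without these 4 arrays 419 genes were called, 285 and 134 by direction, and 371 of them were among the 589. Cycle 1 alone, which holds 3 of the bright arrays, then gave 23 calls in place of 247. Its early window then held 8, 10 and 12 h alone against 6 late times, so these counts rest on different numbers of times. The part of brightness in the calls was not tested further.

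**Figure D4:**
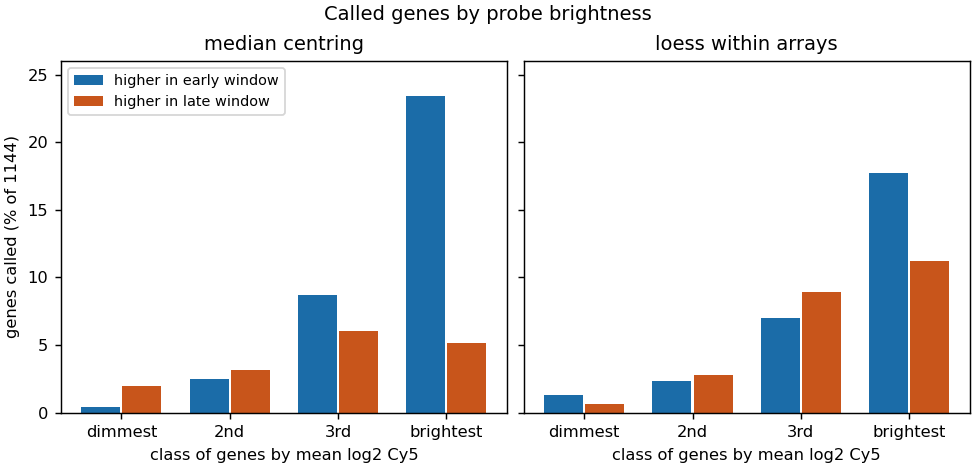
Share of genes called higher in the early window (blue) and in the late window (orange), in percent of the 1144 genes of each class by mean log2 Cy5 intensity, with median centring (left) and with loess within arrays (right). With median centring the blue share rises from 0.437% in the dimmest class to 23.4% in the brightest, and with loess to 17.7%, where the orange share is 11.2%.

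Chromosome 10 stood apart from the other 19 chromosomes. Of its 229 genes 57 (24.9%) were called higher in the early window and 1 higher in the late. Over all genes the shares were 8.78% and 4.09%. On the other chromosomes, 2.27% to 13.4% of genes were called higher in the early window, with the highest share on chromosome 8. The median ratio of its genes lay between -0.45 and -0.26 in 2 stretches, 12 to 22 h and 44 to 48 h, and between -0.08 and 0.05 at the other 15 times. From 10 h to 12 h it went from 0.010 to -0.33, and from 22 h to 24 h from -0.33 to 0.05. At the 9 low times 62.4% to 86.9% of its genes were below the array median. At its other 15 times 40.2% to 65.9% were, and on the other chromosomes 28% to 68.1% over all 24 times, so these ranges overlapped, with 46 h the lowest of the 9. The medians of the other chromosomes stayed between -0.10 and 0.23 at all 24 times. The 9 low times were picked out after the values were seen, and they do not follow the windows: 12 h belongs to the early window, and 24, 38, 40 and 42 h, where the median was near 0, to the late window. At 50 h the median was -0.23. Of the 9 low times, 8 lay in the late window, and the median difference of genes on this chromosome was 0.14 against values from -0.05 to 0.02 on the others. These shares are descriptions, with no test between chromosomes.

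**Figure D5:**
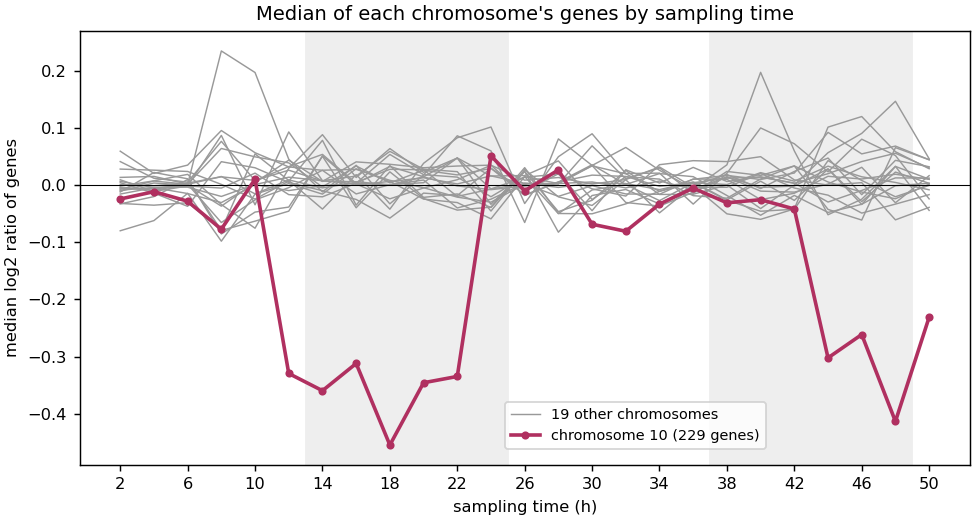
Median log2 ratio, minus the array median, of the genes on each of 20 chromosomes against sampling time in h, with chromosome 10 (229 genes) in red and the other 19 in grey; grey areas mark the late window. The red line lies between -0.45 and -0.26 from 12 to 22 h and from 44 to 48 h, and the grey lines stay between -0.10 and 0.23.

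Genes on chromosome 10 were also brighter, with 41.5% in the brightest class against 17% to 27.8% elsewhere, and within that class 43.2% of them were called higher in the early window against 3.45% to 33.3%. With loess 21.8% were called higher in the early window, against 0.758% to 10.5% elsewhere. When each chromosome was centred on its own median on each array, an alternative chosen after the data were seen, 598 genes were called, 397 (8.68%) and 201 (4.39%) by direction, and 549 of these were among the 589. On chromosome 10 the calls became 36 of 229 for the early window (15.7%, against 4% to 12.9% elsewhere). For the late window they became 20 of 229, where 4.39% of all genes were called. The leading genes there kept their calls with smaller differences, 1.90 for CMJ305C, 1.66 for CMJ054C, 1.45 for CMJ105C and 1.34 for CMJ148C. The files used here give no position of spots on the array, and the cause of the shift was not tested.

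Called genes were followed along the chromosomes through the gene order of the reference table, assembly ASM9120v1, to which 4565 of the 4576 tags matched. Of the 398 matched early genes 21.4% had an early gene as the next gene on either side, as did 16% of all measured genes. Off chromosome 10 the shares were 19.4% and 14.7%. For late genes the shares were 5.88% and 7.54% over all chromosomes, and 5.91% and 7.89% off chromosome 10. Runs of at least 3 such neighbours numbered 9 for the early window and 1 for the late. The longest, CMJ117C, CMJ120C, CMJ121C, CMJ123C and CMJ125C, lay on chromosome 10 with differences from 0.27 to 1.38, and CMJ108C to CMJ111C, a run of 4, lay near it. Off that chromosome the longest was CMQ222C, CMQ224C, CMQ225C and CMQ226C on chromosome 17, with differences of 0.46, 0.94, 0.44 and 0.24. CMT182C, CMT183C and CMT184C on chromosome 20 differed by 1.10, 1.30 and 0.26. With loess CMQ226C (0.16, adjusted p 0.109 from limma) and CMT184C (0.18, adjusted p 0.0904) were not called, so both of these runs were shorter. CMN110C, CMQ093C, CMQ095C, CMR122C, CMR123C and CMT292C, members of other early runs, were not called with loess either. The early runs of at least 3 on chromosomes 8 and 10 kept every member. The single run in the other direction was CMG065C, CMG066C and CMG067C on chromosome 7, at -0.32, -0.35 and -0.51. These runs were named after their values were seen, and whether neighbouring probes share sequence was not analysed here.

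Of the 11 tags without a match 4 were called, all higher in the early window: CMN235C, CMX001C, CMX002C and CMX011C. CMX001C ran from -1.90 to 0.93 (median 0.07) in the early window and from -2.19 to 0.47 (median -1.30) in the late, and differed by 1.23 ± 0.27. CMX011C and CMX002C differed by 0.45 ± 0.15 and 0.32 ± 0.10, and neither was called with loess. CMX011C was then at 0.21 with an adjusted p of 0.400 from limma, and CMX002C at 0.25 with an adjusted p of 0.0616. None of the 10 genes with a second probe was called (0 of 10, where 12.9% of all genes were).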

How the data were processed

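The deposited tables used here give an intensity for Cy5 and for Cy3 per probe, called raw per the file headers, and a log2 value that the authors computed. Per the labels' protocols, amplification of the RNA started from oligo(dT). Scanner, background handling and genome build are not stated there. The files have no flags for dim or saturated spots, so no bounds could be set. Log2(Cy3/Cy5) of series 3 was centred on each array's median and averaged over the 4586 probes of 4576 genes. limma 3.58.1 (R 4.3.3) fitted the window with cycle as a term, and window by cycle, with Benjamini-Hochberg adjustment over all genes; it was also tested on simulated data. Genes named were the 12 called with the largest difference in each direction and the 3 largest called interactions. Members, lists and tests were chosen with earlier results of these data known. Alternatives were loess, normexp (offset 50), scaling between arrays, the authors' deposited log2 values from the series table, array weights, blocks for neighbouring times, and arrays left out. The authors' deposited log2 values had array medians from -0.30 to 0.65, and once each gene was centred they correlated with log2(Cy3/Cy5) at 0.9986 to 1 on the 24 arrays, so both run in the same direction. Series 1 and 2 have no intensities at 14 h, so fits on either lacked that time. With 1 array per time, the number of arrays limits the precision.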

Additional observations from a re-analysis of the deposited data

Results flagged for a closer look

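The difference between windows itself differed between cycles in 3 genes by limma's interaction test over 24 times, which is why they are listed here. Each window of each cycle was 1 run of neighbouring times, so drift between runs would count as a change between cycles. No fit that allows for likeness between neighbouring times was made for this test. For CMP086C, on chromosome 16, the change from cycle 1 to cycle 2 was 1.79 ± 0.33 (log2, adjusted p 0.0282). Its early window ran from -1.35 to -0.40 (median -0.92) in cycle 1 and from -0.33 to 0.80 (median 0.40) in cycle 2, without overlap. Its late window had medians of -1.53 and -2.08, and these ranges overlapped. CMB155C, on chromosome 2, changed by 1.75 ± 0.32 (adjusted p 0.0282). It ran from -2.24 to -0.08 in the early window of cycle 1 and from 0.36 to 0.72 in the late window, and its windows in cycle 2 had medians of -0.11 and -0.02 with overlapping ranges. Its difference over both cycles was -0.84 (adjusted p 0.0189 from limma), and it was not called because the signs differed. With loess, normexp and scaling this difference was called, at -1.34, -0.95 and -0.96 (adjusted p 0.000191, 0.00423 and 0.0122 from limma). CMR319C, on chromosome 18, changed by 1.26 ± 0.24 (adjusted p 0.0282). Its late window went from a median of 0.69 in cycle 1 to -0.33 in cycle 2, again without overlap, and its early window from -0.15 to 0.21 with overlap. The interaction calls were lost in 19 of 37 other fits for CMB155C, 18 for CMP086C and 20 for CMR319C. Loess, scaling and the fits without the bright arrays were among them. In all 3 genes the interaction kept its sign in every one of the 37 fits.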

How the results depend on the processing

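The number of genes called lay between 419 and 657 in 16 of 17 alternatives other than single times left out, and was 1105 with limma's array weights. The lower counts included 419 without the arrays of 2, 4, 6 and 26 h. They also included 449 with 1 common correlation of 0.0893 between neighbouring times. With 1 mean per window and cycle 490 were called, and there the error of each gene was drawn towards a spread over all genes. With 1 time left out it ran from 486 (22 h) to 669 (24 h). Genes at least 2-fold apart were 40 with loess and 36 with loess and without the bright arrays (25 early and 11 late), and 56 (46 h) to 84 (24 h) with 1 time left out. Genes with separate windows were 21 without the bright arrays, 73 without the times beside a border and 16 without 46 and 48 h. They were 17 with loess and without the bright arrays, and 9 to 24 with 1 time left out. This count cannot fall when arrays are left out. Interaction calls were 0 with loess, with scaling, without the bright arrays and with loess and those arrays left out together, 201 with array weights, 52 without border times, 14 and 11 in series 1 and 2, which lack 14 h, 16 without 46 and 48 h, and 0 to 15 (without 14 h) with 1 time left out, 13 without 48 h. Beside these counts of 0, limma's unadjusted p was under 0.05 for 385, 508, 363 and 353 genes, in the order named. Calls in cycle 1 alone were 418 with normexp, 455 with scaling, 23 without the bright arrays, 552 without border times and 38 with loess and without the bright arrays. In cycle 2 alone they were 124, 76 and 113 for the last 3 of these. The cause of these moves was not tested. Of 1271 fits of 31 named genes, 4 lost the call (3 for CMJ148C, 1 for CMS022C). The sign turned in 1, CMR319C at 0.019 without the bright arrays, a gene with no called difference. CMR319C and CMB155C had no call in the main fit, so their fits had none to lose. CMB155C gained the call at least with loess, normexp and scaling, and gained calls are not in these counts. Replicate numbers only count times, so no pairing across groups was read from them.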

Other observations

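Among the 19 chromosomes other than chromosome 10, the highest medians belonged to chromosome 3. The median log2 ratio of its 140 genes was 0.23 at 8 h, and 0.20 at both 10 h and 40 h, with 31.4%, 28.6% and 28.6% of its genes below the array median. These times were picked after the values were seen, they fall in both windows, and no test was made of them. Chromosome 2 had a median of 0.15 at 48 h over 119 genes, and chromosome 12 one of -0.10 at 8 h over 237 genes.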
